A study of Mus musculus with 23 samples.

Results

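Cardiolipin synthesis genes were examined in the brown adipose tissue (BAT) of mice with and without the mitochondrial calcium uniporter gene Mcu, at room temperature (RT) and after acute cold. The genes were chosen by name, with earlier results of these data known, and are Tamm41, Cds2, Pgs1, Ptpmt1, Crls1, Taz and Lclat1. All 7 were found among the 14651 genes of the deposited table. RNA came from whole BAT of 23 male C57BL/6 mice of 8 to 12 weeks, and each library is 1 mouse. The groups were control mice at RT (Mcu[fl/fl], n = 6), control mice at 4°C for 6 h (n = 5), BAT-Mcu-KO animals at RT (n = 6) and BAT-Mcu-KO animals at 4°C for 6 h (n = 6). Mice of all 4 groups carried loxP sites around exon 2 of Mcu, and the BAT-Mcu-KO animals also carried a Cre transgene under the Ucp1 promoter, so recombination is driven in cells that use this promoter and other cells of the tissue keep Mcu. Mice at 4°C were housed singly and, unless stated otherwise, had no food, and the feeding of the mice at RT is not given in the sources used here. Cold, single housing and food withdrawal therefore cannot be told apart, and "cold" stands for all of them below. Loss of Mcu and presence of the Cre transgene cannot be told apart either, and "genotype" stands for both.

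Cardiolipin is the phospholipid with 4 acyl chains that is characteristic of the inner mitochondrial membrane, where it binds respiratory chain complexes and carrier proteins and shapes the cristae. In BAT, whose thermogenic protein UCP1 is itself an inner membrane carrier, cardiolipin is abundant and is known to respond to cold. Synthesis starts from phosphatidic acid. TAMM41 in the mitochondrion and CDS2 in the endoplasmic reticulum turn it into CDP-diacylglycerol. PGS1 then makes phosphatidylglycerol phosphate in the committed step, PTPMT1 removes the phosphate, and CRLS1, the cardiolipin synthase, joins phosphatidylglycerol with a further CDP-diacylglycerol. Tafazzin, the product of Taz and the protein mutated in Barth syndrome, remodels the acyl chains by transacylation. LCLAT1 (also ALCAT1), an acyltransferase of the endoplasmic reticulum and its contacts with mitochondria, adds acyl chains to lysocardiolipin. The symbol Taz means tafazzin here and not the Hippo pathway coactivator Wwtr1.

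Depth was 7129271 to 21006347 reads per mouse, and mitochondrially encoded genes took 23.1 to 38.1% of the reads. Mcu had a mean normalized count of 109.5 ± 22.5 (SD, n = 6) in control mice at RT and 106.9 ± 26.8 (n = 5) at 4°C, against 35.1 ± 10.03 and 33.9 ± 6.60 (n = 6 each) in BAT-Mcu-KO animals, with no overlap between the genotypes. All 8 brown adipocyte markers were measured in every group, from Zic1 with a mean of 24.8 to 35.2 up to Ucp1 with 56907 to 165205. Skeletal muscle markers varied widely from mouse to mouse. Their sum (8 genes) ran from 6.22 to 31506 in control mice at 4°C and from 18.6 to 44614 in BAT-Mcu-KO animals at RT, and 0 of the 8 passed the test in any comparison. Endothelial markers moved with temperature: their sum (5 genes) was 2844 to 4139 in control mice at RT and 5576 to 9764 at 4°C, and 3114 to 4377 and 5166 to 9121 in BAT-Mcu-KO animals, and 3 of the 5 (Pecam1, Kdr and Cldn5) rose with cold in each genotype. Of 6 macrophage markers, 0 passed the test by cold in control mice and 3 rose in BAT-Mcu-KO animals. Of the 8 brown adipocyte markers 3 rose and 2 fell with cold in control mice and 3 rose and 1 fell in BAT-Mcu-KO animals, and of 4 general adipocyte markers 1 rose and 2 fell, and 0 rose and 1 fell. Of 4 blood markers 0 changed, no marker of any list passed the test of the interaction, and no marker of these lists was at 0 in all mice of a group. In whole tissue, fewer cells of a type and less RNA per cell cannot be told apart.

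The genes lie on 5 chromosomes (GRCm38, GENCODE M21), with Crls1, Cds2 and Ptpmt1 all on chromosome 2. Crls1 spans 132846666 to 132866785 and Cds2 132263148 to 132312050 on the plus strand, and Ptpmt1 spans 90908716 to 90918258 on the minus strand. Pgs1 lies on chromosome 11 (117986292 to 118024011, plus strand), Tamm41 on chromosome 6 (115004381 to 115037876, minus strand), Lclat1 on chromosome 17 (73107985 to 73243368, plus strand) and Taz on the X chromosome (74281912 to 74290151, plus strand). Reads were counted without regard to strand, so a stretch that is exonic in overlapping genes cannot be assigned by strand. This concerns Ptpmt1, which shares 1657 of its 3684 exon bases (45.0%) with Kbtbd4 and 270 (7.33%) with the pseudogene Gm17661, both on the opposite strand. Kbtbd4 had a mean normalized count of 57.5 over all mice. Pgs1 shares 93 of its 5333 exon bases (1.74%) with Dnah17, Crls1 shares 2 bases with an antisense gene, and the other 4 share none.

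RefSeq (GRCm38.p6) gives promoter windows for 6 of the 7 genes, 250 bases before to 50 after the start, in 8 windows since Cds2 and Crls1 have a pair each. The sequence before the start is shown for the gene with the largest rise in the cold, the 2 that fell and the synthase itself, in lower case and 5′ to 3′ on the gene's strand. Capitals mark the matches, on either strand, to the short CRE motif TGACG (the left part of the CREB and ATF binding sequence) in Lclat1 and Taz, where a match on the other strand reads CGTCA, and to the E-box CACGTG in Crls1. The Taz stretch ends before the first exon that starts there. It lies within the gene as GENCODE annotates it, from 74281912, and is thus upstream of the RefSeq start only. No stretch is shown for Pgs1 and Ptpmt1, whose windows overlap annotated exons of their own.
Lclat1 (chr17:73107735-73107984, plus strand): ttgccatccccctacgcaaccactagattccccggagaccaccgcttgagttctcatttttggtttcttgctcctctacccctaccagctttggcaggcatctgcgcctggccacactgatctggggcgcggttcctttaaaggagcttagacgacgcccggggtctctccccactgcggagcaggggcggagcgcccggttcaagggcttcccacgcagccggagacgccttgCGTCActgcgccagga
Taz (chrX:74282468-74282696, plus strand): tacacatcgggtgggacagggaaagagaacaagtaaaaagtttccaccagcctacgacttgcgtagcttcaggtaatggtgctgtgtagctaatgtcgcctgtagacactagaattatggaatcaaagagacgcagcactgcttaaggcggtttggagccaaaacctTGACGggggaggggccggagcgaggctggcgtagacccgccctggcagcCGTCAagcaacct
Cds2 (chr2:132262898-132263147, plus strand): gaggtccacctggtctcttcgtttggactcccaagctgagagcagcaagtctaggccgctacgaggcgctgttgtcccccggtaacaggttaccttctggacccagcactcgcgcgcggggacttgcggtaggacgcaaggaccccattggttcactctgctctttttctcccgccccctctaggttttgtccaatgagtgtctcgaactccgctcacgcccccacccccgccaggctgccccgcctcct
Crls1 (chr2:132846416-132846665, plus strand): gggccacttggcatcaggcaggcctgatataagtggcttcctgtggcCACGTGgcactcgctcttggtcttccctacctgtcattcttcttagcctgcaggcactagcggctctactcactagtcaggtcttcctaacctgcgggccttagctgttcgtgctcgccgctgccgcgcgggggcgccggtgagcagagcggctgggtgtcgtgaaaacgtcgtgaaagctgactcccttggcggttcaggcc
The match in Lclat1 starts at position -16 from the RefSeq start, and those in Taz at -83 and -34. TGACG was in 3 of the 8 windows, these 2 and the downstream start of Crls1, and it was in 20.8% of all 32851 RefSeq windows and in 29.96% of the windows of genes in the table. The E-box was in 1 of the 8 windows, at position -203 of Crls1, and in 7.15% of all windows. The full CRE TGACGTCA (1.79% of all windows, and a part of it is counted as TGACG), the motif TNAAGGTCA of the oestrogen-related receptors (1.28%) and the NRF1 core CGCATGCG (1.87%) were in 0 of the 8. A match or its lack describes the letters of these windows only.

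At RT the genes differed widely in level. Levels were divided by the union of all annotated exons of a gene, 5364 bases for Taz and 2082 for Crls1. Where the transcripts present are shorter than this union, the level per kilobase comes out too low. The order of the genes therefore depends on these lengths, and which transcripts were present was not examined. Per kilobase of annotated exon, Crls1 had the highest mean normalized count in control mice at RT, 491.2 ± 52.0 (SD, n = 6), followed by Taz with 180.2 ± 15.1 and Ptpmt1 with 114.2 ± 9.03. Lclat1 followed with 66.9 ± 11.5 per kilobase and Cds2 with 61.6 ± 6.85, and these 2 overlapped, Lclat1 being the higher in 3 of 6 mice. Tamm41 was lower, at 31.7 ± 5.82 per kilobase, and Pgs1, the gene of the committed step, was lowest at 14.3 ± 4.08. Every other pair of neighbours in this order was separated without overlap. The level of Ptpmt1 uses all its exon bases, 45.0% of which are shared with Kbtbd4. Its place, at RT and in the cold, holds only if reads in those bases were counted for Ptpmt1, which is not given. The order was the same in BAT-Mcu-KO animals at RT, again with Lclat1 and Cds2 overlapping.

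In the cold the order by these same exon lengths changed. Lclat1 moved to the second place, with 225.3 ± 83.0 per kilobase in control mice (n = 5) and 201.2 ± 43.3 in BAT-Mcu-KO animals (n = 6). It overlapped Taz, at 128.0 ± 6.83 and 146.2 ± 9.05, and was the higher of the 2 in 5 of 5 and 5 of 6 mice. Pgs1 rose to 27.4 ± 7.85 and 23.3 ± 4.17 per kilobase and overlapped Tamm41, at 29.6 ± 4.31 and 27.7 ± 2.38. In control mice Taz also overlapped Ptpmt1, and Cds2 overlapped Tamm41. Crls1 stayed first in both genotypes, and its range overlapped that of no other gene.

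**Figure D1:**
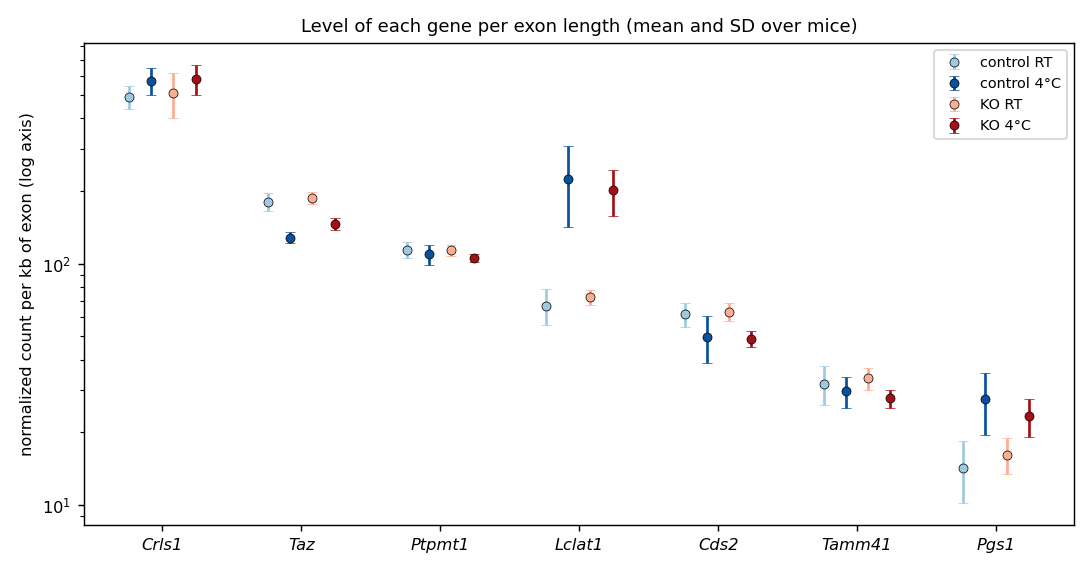
Mean normalized count per kilobase of annotated exon (log axis) for each cardiolipin synthesis gene in the 4 groups, with the SD over 5 or 6 mice as whiskers. Crls1 is highest and Pgs1 lowest in each group, and Lclat1 goes from about the level of Cds2 at RT to above that of Taz at 4°C. Exon length is the union of all annotated exons of a gene, and the order of the genes depends on it. The exon length of Ptpmt1 includes the bases it shares with Kbtbd4.

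Cold changed 4 of the 7 genes in control mice, 2 in each direction. Lclat1 and Pgs1 rose while Taz and Cds2 fell. The same 4 genes passed the test in BAT-Mcu-KO animals, in the same directions. The test was limma on log2(normalized count + 1), adjusted by the Benjamini-Hochberg method over all 14651 genes, and the threshold for calling a gene changed was an adjusted p of 0.05. Cold changed much of the transcriptome, and these counts have to be read against that. In control mice 46.0% of all genes were called (22.3% higher and 23.7% lower), and in BAT-Mcu-KO animals 43.3% (21.4% higher and 21.9% lower). The share called among the cardiolipin synthesis genes was thus near that of all genes. The median log2 difference of the 7 genes was -0.07 in control and -0.11 in BAT-Mcu-KO animals, beside -0.02 for all genes in both. With libraries scaled to their 75th percentile, the median of all genes in control mice was -0.13, and of the genes called in control mice 38.2% were higher, against 48.5% with the authors' size factors. The directions of the 4 genes were the same under that scaling. The 2 cold comparisons use different mice throughout.

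**Figure D2:**
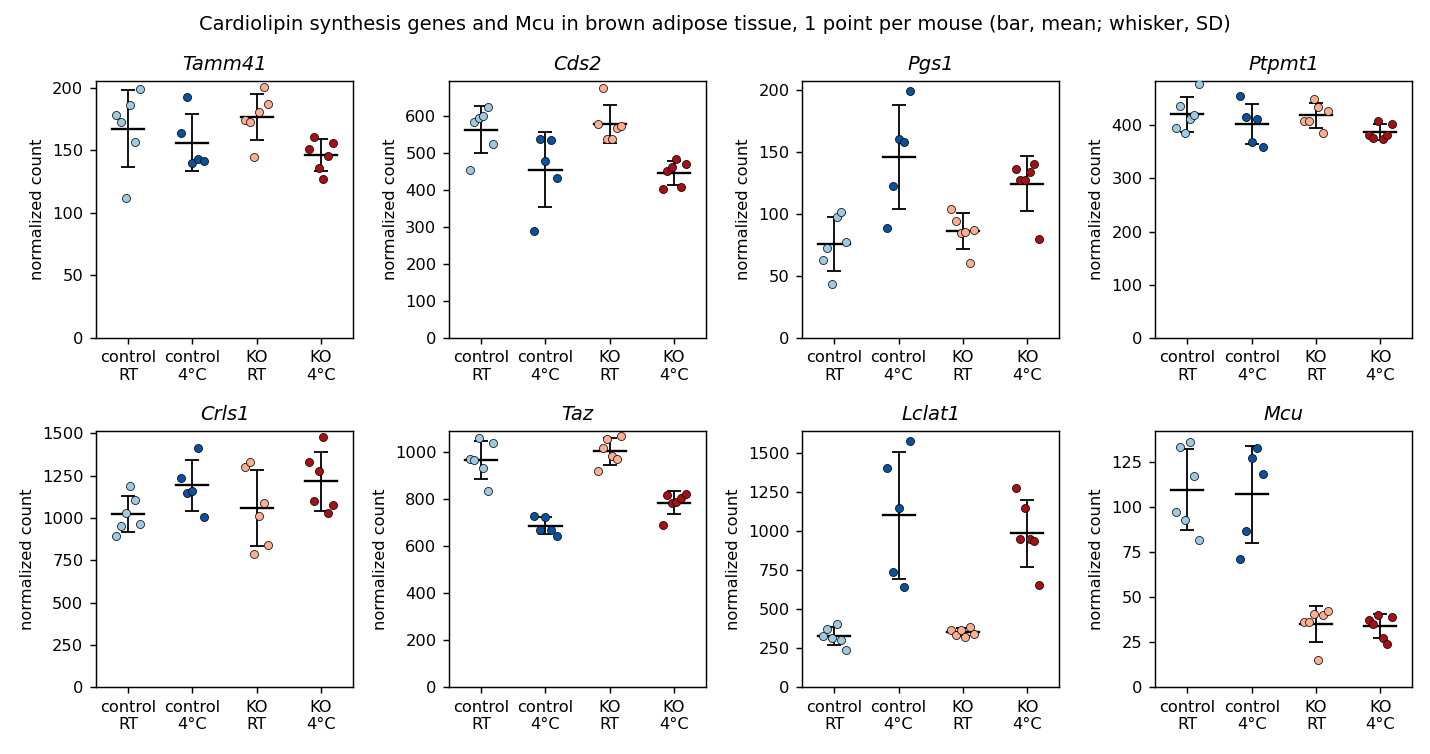
Normalized count (linear axis from 0) of the 7 cardiolipin synthesis genes and Mcu in each mouse, with the mean as a bar and the SD as whiskers. Lclat1 is higher and Taz lower in every mouse at 4°C than in any mouse at RT of the same genotype, and Mcu separates the genotypes.

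Lclat1, the lysocardiolipin acyltransferase, changed most. In control mice at RT its normalized count was 242.3 at the lowest, 323.3 at the median and 404.7 at the highest. At 4°C the 5 control mice had 1406, 740.6, 1149, 642.8 and 1575. Every control mouse in the cold was thus above every control mouse at RT, with 3 of the 5 at 1149 or more. In BAT-Mcu-KO animals the lowest, median and highest values were 320.7, 356.9 and 385.7 at RT and 654.1, 948.1 and 1272 at 4°C. These groups did not overlap either. The difference was 1.68 ± 0.19 (log2, SE; 3.21-fold, 95% interval 2.45 to 4.19; limma adjusted p = 6.4e-08) in control and 1.44 ± 0.18 (2.72-fold, 2.11 to 3.51; adjusted p = 3.5e-07) in BAT-Mcu-KO animals. Its log2 difference stood at the 97.3 percentile of all genes in control and the 96.7 percentile in BAT-Mcu-KO animals. Of all genes, 13.0% were without overlap and higher at 4°C in control mice and 12.4% in BAT-Mcu-KO animals. Adding the summed endothelial markers as a covariate left a difference of 1.70 (adjusted p = 0.00087) and 1.47 (adjusted p = 0.0018), with the sums of the 2 temperatures not overlapping in either genotype.

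Pgs1, the gene of the committed step, was the other that rose. It is also the least expressed, resting on 44 to 249 reads per mouse. In control mice it ranged from 43.4 through a median of 75.1 to 101.5 at RT, and the 5 mice at 4°C had 89.0, 122.9, 160.5, 157.9 and 199.7. Of the mice in the cold, 4 of 5 were above every mouse at RT. The difference was 0.94 ± 0.21 (1.91-fold, 1.41 to 2.59; adjusted p = 0.00076). In BAT-Mcu-KO animals the lowest, median and highest values were 60.4, 86.0 and 104.4 at RT and 80.1, 130.7 and 140.3 at 4°C. There, 5 of 6 mice in the cold were above every mouse at RT, and the remaining one lay within the RT range. The difference in BAT-Mcu-KO animals was 0.52 ± 0.20 (1.44-fold, 1.08 to 1.92; adjusted p = 0.038). It is close to the threshold. It was no longer called under 75th percentile scaling (0.47, adjusted p = 0.061) or when any 1 of 9 mice was left out (BAT-Mcu-KO replicates 1 to 5 at 4°C or 3 to 6 at RT), with values from 0.43 to 0.64 over all mice left out in turn. With the endothelial covariate Pgs1 was called in neither genotype (0.85, adjusted p = 0.13, and 0.44, adjusted p = 0.44). The endothelial sums of the temperatures did not overlap in either genotype, so this fit separates them poorly from cold.

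Taz, the remodelling transacylase, fell with little spread. In control mice it went from 834.6 through a median of 967.1 to 1061 at RT, and the mice at 4°C had 728.2, 669.3, 721.8, 670.0 and 643.9. In BAT-Mcu-KO animals the lowest, median and highest values were 919.0, 999.6 and 1069 at RT and 690.1, 796.0 and 820.9 at 4°C. All 11 mice in the cold were below every mouse of their genotype at RT. Of all genes, 12.3% were without overlap and lower at 4°C in control mice and 11.9% in BAT-Mcu-KO animals. The difference was -0.49 ± 0.07 (0.71-fold, 0.64 to 0.79; adjusted p = 5.8e-06) in control and -0.35 ± 0.07 (0.78-fold, 0.71 to 0.86; adjusted p = 0.0002) in BAT-Mcu-KO animals. With the endothelial covariate, which this fit separates poorly from cold, it was -0.39 (adjusted p = 0.035) and -0.26 (adjusted p = 0.14).

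Lclat1 and Taz both act on the acyl chains of cardiolipin, and their ratio in each mouse restates the 2 differences above. The ratio of the Lclat1 to the Taz normalized count, in which exon length is not corrected for, had a median of 0.351 (0.233 to 0.435) in control mice at RT and 1.59 (0.959 to 2.45) at 4°C. In BAT-Mcu-KO animals it was 0.341 (0.322 to 0.402) at RT and 1.18 (0.797 to 1.84) at 4°C. That these ranges do not overlap follows from the values of the 2 genes. The ratio of Taz to Crls1 went from a median of 1.02 (0.753 to 1.08) to 0.588 (0.474 to 0.642) in control mice, also without overlap. In BAT-Mcu-KO animals it went from 0.932 (0.708 to 1.34) to 0.676 (0.518 to 0.783), and the ranges overlapped.

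Cds2, the CDP-diacylglycerol synthase of the endoplasmic reticulum, fell by a smaller amount. In BAT-Mcu-KO animals the lowest, median and highest values were 537.3, 568.8 and 674.4 at RT and 401.6, 456.2 and 482.0 at 4°C, without overlap. The difference was -0.37 ± 0.12 (0.77-fold, 0.65 to 0.91; adjusted p = 0.012). In control mice the values were 454.3, 587.8 and 623.4 at RT, and the mice at 4°C had 289.3, 537.2, 476.7, 533.3 and 432.2, so that the groups overlapped. The difference was -0.34 ± 0.12 (0.79-fold, 0.66 to 0.94; adjusted p = 0.028). The control result leaned on replicate 1 at 4°C, the shallowest library, where Cds2 had 143 reads. Without that mouse the difference was -0.18 (adjusted p = 0.14), and with only libraries of at least 10000000 reads it was -0.22 (adjusted p = 0.11). It also lost its call without control replicate 5 at 4°C or without control replicate 3, 4 or 5 at RT (adjusted p of 0.051 to 0.057).

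The other CDP-diacylglycerol synthase gene, Tamm41, and the genes of the 2 steps after Pgs1 were not called in either genotype. Tamm41 had means of 167.1 ± 30.7 at RT (n = 6) and 156.1 ± 22.8 at 4°C (n = 5) in control mice, a difference of -0.09 with an interval of -0.36 to 0.19 (adjusted p = 0.62). In BAT-Mcu-KO animals the means were 176.5 ± 18.6 and 145.9 ± 12.6 (n = 6 each), and the difference was -0.27 with an interval of -0.53 to -0.01 (adjusted p = 0.086). That difference passed the threshold under 75th percentile scaling (-0.32, adjusted p = 0.047) and with only the 2 groups compared in the fit (-0.27, adjusted p = 0.045). Ptpmt1, the phosphatase gene, had the narrowest range of the 7 over all mice, relative to its level. Its 23 values ran from 360.0 to 477.7, and its intervals for cold, -0.23 to 0.10 in control and -0.27 to 0.05 in BAT-Mcu-KO animals, allow a fall to at most 0.85-fold and 0.83-fold. Whether reads in the bases that Ptpmt1 shares with Kbtbd4 were counted for either gene is not given in the sources used here. For Kbtbd4 the cold difference was 0.14 (adjusted p = 0.58) in control and 0.52 (adjusted p = 0.026) in BAT-Mcu-KO animals.

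Crls1, the synthase gene, was higher on average in the cold in both genotypes but did not pass the test in either. In control mice it ranged from 895.0 through a median of 998.5 to 1186 at RT, and the mice at 4°C had 1238, 1147, 1157, 1415 and 1003. In BAT-Mcu-KO animals the lowest, median and highest values were 788.2, 1049 and 1331 at RT and 1028, 1188 and 1480 at 4°C. In each genotype 2 mice in the cold were above every mouse at RT. The difference was 0.22 ± 0.13 (1.16-fold, 0.97 to 1.40; adjusted p = 0.17) in control and 0.21 ± 0.12 (1.16-fold, 0.97 to 1.38; adjusted p = 0.17) in BAT-Mcu-KO animals. Crls1 was most variable in BAT-Mcu-KO animals at RT (CV 21.3%, against 10.6 to 14.5% in the other groups). The 3 mice of that group with summed muscle markers of 31838 to 44614 (replicates 3, 4 and 6) had Crls1 values of 788.2, 1011 and 842.0, and the 3 with sums of 18.6 to 2982 had 1298, 1331 and 1087. In control mice at 4°C, where the sums ranged as widely, the 3 mice with 10591 to 31506 (replicates 2, 4 and 5) had 1147, 1415 and 1003, and the 2 with 6.22 and 22.3 had 1157 and 1238. This split of Crls1 by muscle markers was looked at after the values were seen, and its part in the spread was not tested. With the summed muscle markers as a covariate, the cold difference of Crls1 was 0.22 and 0.20, and neither was called.

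**Figure D3:**
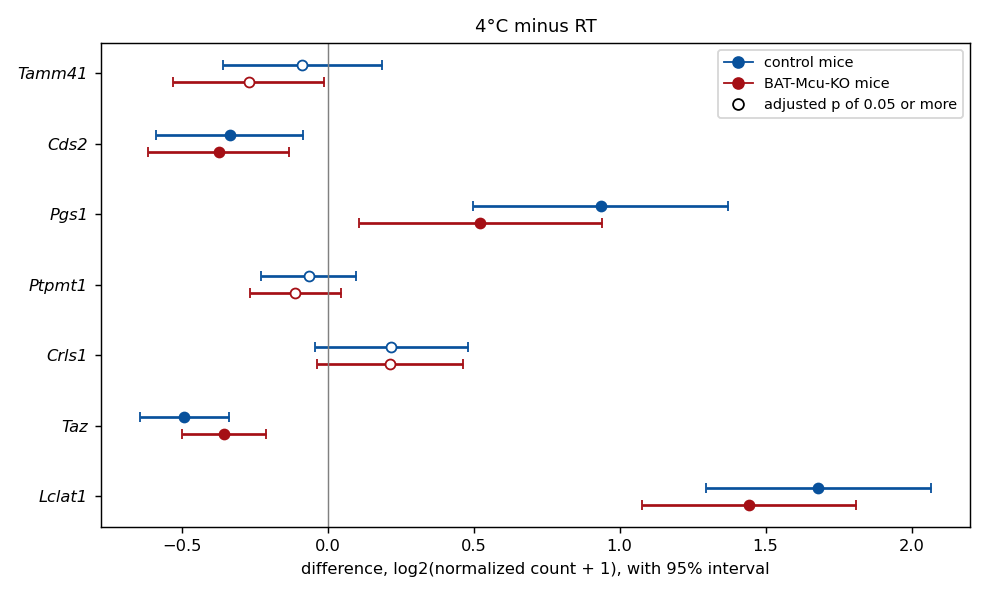
Difference between 4°C and RT on the log2(normalized count + 1) scale for each gene in control (blue) and BAT-Mcu-KO (red) mice, with the 95% interval of the limma fit. Filled points have an adjusted p-value under 0.05 over all genes: Lclat1 and Pgs1 to the right of 0, Taz and Cds2 to the left, in both genotypes.

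**Figure D4:**
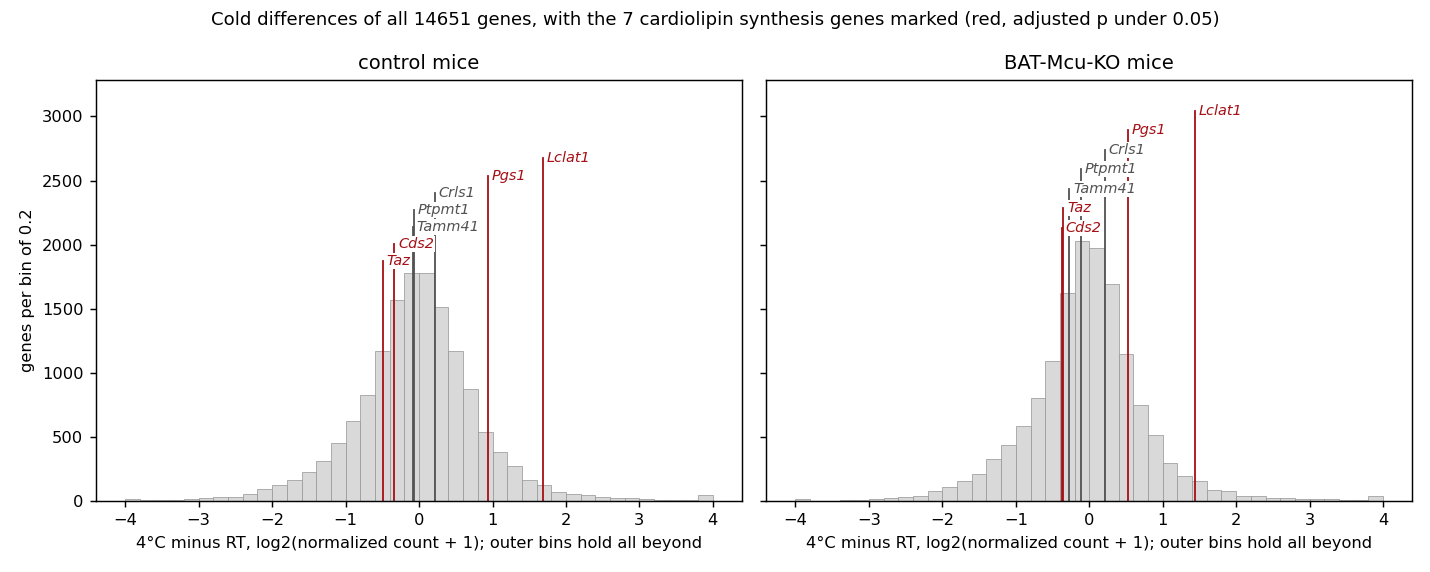
Number of genes by their cold difference (log2 scale, bins of 0.2, the outermost bins holding all beyond) in control (left) and BAT-Mcu-KO (right) mice, with lines at the 7 cardiolipin synthesis genes, red where called. Lclat1 lies in the upper tail, at the 97.3 and 96.7 percentile, and the genes that fell lie within the body of the distribution.

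None of the 7 genes was called by genotype at either temperature. At RT 0 of 7 were called, with adjusted p-values of 0.99 or more, beside 0.0478% of all genes (7 genes). At an unadjusted p-value under 0.05 in limma the counts at RT were 0 of the 7 and 754 of all genes. The differences between BAT-Mcu-KO and control mice at RT ran from -0.005 for Ptpmt1 to 0.21 ± 0.20 for Pgs1. Among the 7 intervals the widest was that of Pgs1, which allows up to 1.54-fold, while those of Ptpmt1 and Taz stayed within 0.89-fold to 1.15-fold. For Crls1 the means were 1023 ± 108 in control and 1059 ± 226 in BAT-Mcu-KO animals (n = 6 each), and the interval was 0.86-fold to 1.21-fold.

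At 4°C again 0 of 7 were called by genotype, with adjusted p-values of 0.60 or more, beside 0.0751% of all genes (11 genes). By DESeq2 and edgeR on the recovered reads the counts of members were also 0 at each temperature, while DESeq2 called 20 genes of all at RT and 23 at 4°C, and edgeR 7 and 6. Taz had the smallest p-value of the 7. It was 686.6 ± 36.7 in control (n = 5) and 784.3 ± 48.5 in BAT-Mcu-KO animals (n = 6), and 5 of the 6 BAT-Mcu-KO animals were above every control mouse. The difference was 0.19 ± 0.07 (1.14-fold, 1.03 to 1.27), with an adjusted p of 0.60. It was the only one of the 7 under 0.05 before adjustment in limma, as were 1023 of all genes. For Pgs1 the difference was -0.20 ± 0.21, with an interval of 0.64-fold to 1.18-fold. For the other 5 the differences ran from -0.11 for Lclat1 to 0.02 for Crls1.

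The cold differences were then compared between the genotypes by the interaction term. None of the 7 passed (adjusted p of 0.87 or more), beside 0.0% of all genes, that is 0 genes by limma and 0 by edgeR, 28 by DESeq2 and 878 at an unadjusted p-value under 0.05 in limma. The cold difference in BAT-Mcu-KO animals minus that in control mice was -0.41 ± 0.29 (log2, SE) for Pgs1, -0.24 ± 0.26 for Lclat1 and 0.14 ± 0.10 for Taz. The intervals of the interaction reach -1.02 for Pgs1 and -0.77 for Lclat1. As a ratio of the cold fold change in BAT-Mcu-KO animals to that in control mice, these bounds are 0.49 for Pgs1 and 0.59 for Lclat1. The bound of Pgs1 is larger in size than its rise in control mice (0.94, log2), and that of Lclat1 is smaller than its rise (1.68). For Ptpmt1 and Taz the interval was tighter, from 0.83-fold to 1.13-fold and from 0.95-fold to 1.27-fold.

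**Figure D5:**
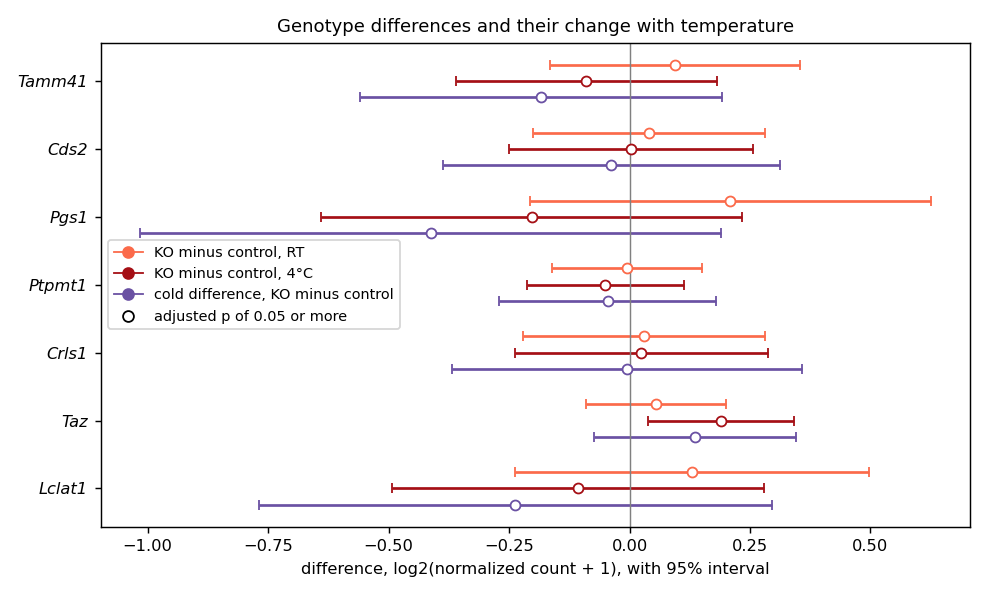
Differences on the log2(normalized count + 1) scale between BAT-Mcu-KO and control mice at RT (orange) and 4°C (dark red), and of the cold difference between the genotypes (purple), with 95% intervals. Open points have an adjusted p-value of 0.05 or more, which holds for all 21, and the intervals of Pgs1 and Lclat1 are the widest.

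The genes around this pathway were read from lists chosen for their known roles, with earlier results of these data known. The counts of these lists, here and below, stand beside the shares of all genes. In control mice 22.3% of all genes rose with cold and 23.7% fell, and in BAT-Mcu-KO animals 21.4% and 21.9%. Of 14 genes that make phosphatidic acid or draw on it, 5 rose and 2 fell with cold in control mice and 5 rose and 3 fell in BAT-Mcu-KO animals. Gpam, a mitochondrial glycerol phosphate acyltransferase, rose by 1.92 ± 0.18 (log2, SE) in control and 1.63 ± 0.17 in BAT-Mcu-KO animals, and Agpat6 (now Gpat4), its counterpart in the endoplasmic reticulum, by 0.64 ± 0.10 and 0.57 ± 0.09. Lpin3, a phosphatidic acid phosphatase, rose by 1.12 ± 0.19 and 0.61 ± 0.18, and Agpat3 by 0.38 ± 0.07 and 0.46 ± 0.07. The limma adjusted p-values of these 4 were 0.0077 or less. The 2 that fell in control mice were Lpin1 (-0.42 ± 0.13) and Agpat2 (-0.55 ± 0.18), and both fell in BAT-Mcu-KO animals (-0.46 ± 0.12 and -0.75 ± 0.17). In control mice Lpin1 went from a mean of 6495 to 4831 and Agpat2 from 29169 to 20444, while Lpin3 went from 61.0 to 133.6. Of 12 genes of the synthesis of other phospholipids, 7 rose in control and 6 in BAT-Mcu-KO animals and 0 fell. The choline kinase gene Chka rose by 2.76 ± 0.14 and 2.12 ± 0.14, from a mean of 94.1 to 640.0 in control mice. Ept1 (now Selenoi), an ethanolamine phosphotransferase, rose by 0.83 ± 0.12 and 0.87 ± 0.12, Chkb by 0.52 ± 0.09 and 0.62 ± 0.08, and Etnk1, an ethanolamine kinase, by 0.61 ± 0.14 and 0.49 ± 0.13. The median log2 difference of this list was 0.34 in control and 0.25 in BAT-Mcu-KO animals.

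Of 13 genes of cardiolipin remodelling, transport and breakdown other than Taz and Lclat1, 2 rose and 4 fell in control mice, and 3 rose and 3 fell in BAT-Mcu-KO animals. Pnpla8, a phospholipase of mitochondria and peroxisomes, rose by 0.85 ± 0.12 and 0.69 ± 0.12. Pla2g6, another calcium-independent phospholipase, fell with differences of -0.54 ± 0.11 and -0.45 ± 0.10. Dnajc19, which binds prohibitins, fell with -0.48 ± 0.11 and -0.32 ± 0.10, and Pld6, a mitochondrial surface protein described as a cardiolipin hydrolase, rose by 0.65 ± 0.21 and 0.67 ± 0.20. Of 9 genes that organise the inner membrane, 0 rose and 5 fell in control mice, and 1 fell in BAT-Mcu-KO animals. Chchd6, a subunit of the cristae junction complex MICOS, fell in both (-0.35 ± 0.09 and -0.31 ± 0.09). The MICOS genes Apool (-0.39 ± 0.11), 2410015M20Rik (now Micos13; -0.34 ± 0.10) and Minos1 (now Micos10; -0.28 ± 0.10) fell in control mice, and their differences in BAT-Mcu-KO animals were -0.14, -0.04 and -0.02. No gene of this list passed the test of the interaction.

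Of 11 genes of mitochondrial transcriptional regulation, 4 rose and 3 fell with cold in each genotype. The coactivator gene Ppargc1a rose by 5.10 ± 0.23 in control and 4.33 ± 0.22 in BAT-Mcu-KO animals. Among the oestrogen-related receptors that PGC1A coactivates, Esrrb rose by 3.09 ± 0.49 and 3.12 ± 0.47 from a mean of 4.74 in control mice, and Esrrg fell (-1.08 ± 0.23 and -0.96 ± 0.22). Esrra was not called (0.25 ± 0.15 and 0.24 ± 0.14; adjusted p = 0.17 in each). Gabpa rose by 0.97 ± 0.17 and 0.65 ± 0.16. No gene of these lists was called by genotype at RT, by genotype at 4°C or by the interaction.

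Within the groups, the genes did not form a block that varies together. For the 21 pairs of cardiolipin synthesis genes, the Pearson correlation of the log2 deviations from the group means over the 23 mice had a median of -0.14 and ran from -0.55 (Pgs1 and Taz) to 0.34 (Ptpmt1 and Tamm41), and 7 of the 21 were above 0. With the groups included, the same pairs ran from -0.85 (Taz and Lclat1) to 0.72 (Pgs1 and Lclat1), which takes in their cold differences. These correlations are descriptions, from mice that share normalization across the table. Over the 23 mice with the groups included, the genes most like Crls1, Ptpmt1, Pgs1, Tamm41 and Taz were sought among 9530 genes of mean normalized count 50 or more. Lclat1 and Cds2 were not among the genes this search was set for. The correlations include the differences between groups, so a gene that differs with temperature correlates with others that do. Taz was closest to Isoc2b, Tmem218 and Ddx59 (r of 0.95, 0.95 and 0.94), and Pgs1 to Rrs1, Sdccag3 and Lamp1 (0.91, 0.89 and 0.88). Crls1 was closest to Ube2q2, Heg1 and Irf4 (0.80, 0.80 and 0.78), Ptpmt1 to Nae1, Mycbp and Acyp2 (0.74, 0.73 and 0.71), and Tamm41 to Cds1, Sec11a and A830018L16Rik (0.72, 0.68 and 0.67). Cds1, the closest to Tamm41, is the third CDP-diacylglycerol synthase gene. It fell in BAT-Mcu-KO animals by cold (-0.81 ± 0.17) and was -0.33 ± 0.18 in control mice (adjusted p = 0.14).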

How the data were processed

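BAT RNA of 23 mice in 4 groups was sequenced as Smart-seq2 libraries. The authors aligned reads with STAR 2.4.0j to mm10 (GENCODE M7), counted uniquely mapped exonic reads with HTSeq irrespective of strand, kept genes with 8 or more reads in 6 or more samples, and divided counts by DESeq2 size factors. The deposited signal is this table of normalized counts. A second deposited table, with log2 fold changes, fold values and p-values of the authors' comparisons, was not used.

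Groups come from the sample labels, and each column was matched to its sample by name. All mice are separate animals, and 55 pairs within groups differed by a chi-square of 8.88 to 63.8 per degree of freedom, so none was taken as a duplicate. Values were whole multiples of 1 read (100.0% within 0.01 read), which gave the reads back. Counting error alone does not cover PCR copies.

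The test was limma 3.58.1 (R 4.3.3) on log2(normalized count + 1), with 4 group means, all 23 mice in 1 fit, a variance trend and Benjamini-Hochberg adjustment over 14651 genes. Fold changes are on that scale. Alternatives were pseudocounts of 0.5 and 10, a mean of at least 50, 75th percentile scaling, quantile normalization, no trend, only the 2 groups compared, the replicate number as a block, DESeq2 1.42.0 and edgeR 4.0.16 (quasi-likelihood) on the recovered reads, and each mouse left out. A minimum of 10000000 reads and the log2 sums of muscle or of endothelial markers as covariates were added after seeing the data.

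Named are the 7 genes, Mcu, Ppargc1a, Esrra and Esrrg, markers, up to 4 genes per list with the smallest p by cold in control mice, and the 3 genes most correlated with each of 5 members. Genes that overlap a member, and Lpin1 and Agpat2, were named after their values were seen. The members and lists were chosen with earlier results of these data known. Positions and exon lengths are from GENCODE M21, promoters from RefSeq. Python 3.11.15, pandas 2.3.3 and matplotlib 3.10.9 were used.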

Additional observations from a re-analysis of the deposited data

Results flagged for a closer look

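Of 28 sets of values (7 genes in 4 groups of 5 or 6 mice), 3 held a mouse flagged by Dixon's test. There the gap to the nearest neighbour, divided by the range of the set, exceeded the 95% critical value (0.625 for 6 mice). Chance flags about 1 in 20 such sets. Pgs1 was 80.1 in BAT-Mcu-KO replicate 6 at 4°C, and the next lowest mouse had 127.1. Without this mouse the cold difference of Pgs1 in BAT-Mcu-KO animals was 0.64 (limma adjusted p = 0.012) in place of 0.52, and the genotype difference at 4°C was -0.08 in place of -0.20. Taz was 690.1 in BAT-Mcu-KO replicate 1 at 4°C, and the next lowest had 784.5. Without this mouse its cold difference was -0.32 (adjusted p = 0.00085) and its genotype difference at 4°C 0.23 (adjusted p = 0.60). Cds2 was 674.4 in BAT-Mcu-KO replicate 2 at RT, and the next highest had 576.4. Without this mouse its cold difference in BAT-Mcu-KO animals was -0.33 (adjusted p = 0.034). No gene was flagged for a cold difference that differs between the genotypes.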

How the results depend on the processing

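Lclat1 kept its rise and its call in both genotypes under every alternative (1.35 to 1.85), and Taz its fall and, except with the endothelial covariate in BAT-Mcu-KO animals, its call (-0.63 to -0.26). The number of genes called by cold was 4 in each genotype. Apart from leaving out single mice, the alternatives gave 2 to 4 in control and 2 to 5 in BAT-Mcu-KO animals. The 2 came with the endothelial covariate, which kept Lclat1 and Taz in control and Lclat1 and Cds2 in BAT-Mcu-KO animals. Under that covariate 2634 genes in all were called in control and 2658 in BAT-Mcu-KO animals, against 6735 and 6349. The endothelial sums do not overlap between temperatures, so this fit separates the 2 poorly. With 1 mouse left out, 3 to 4 were called in control and 3 to 5 in BAT-Mcu-KO animals. Cds2 in control mice lost its call also with only the 2 groups compared (-0.34, adjusted p = 0.084) or the endothelial covariate, where the fall was larger (-0.56, adjusted p = 0.072; -0.58, adjusted p = 0.044, in BAT-Mcu-KO animals), and ran from -0.40 to -0.18 with 1 mouse left out. Tamm41 in BAT-Mcu-KO animals gained one without BAT-Mcu-KO replicate 3 (adjusted p = 0.047) or control replicate 3 (adjusted p = 0.043) at RT. By genotype and interaction 0 of the 7 genes were called under every alternative. Of all genes, 3 to 20 were called by genotype at RT and 2 to 23 at 4°C, against 7 and 11, with the lowest counts from only the 2 groups compared and the highest from DESeq2, and 0 to 28 by the interaction.

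Differences that changed sign were never called. With the endothelial covariate the cold difference was -0.19 for Crls1, 0.10 for Ptpmt1 and 0.31 for Tamm41 in control mice. In BAT-Mcu-KO animals these were -0.16, 0.042 and 0.096, and the interaction of Crls1 was 0.027. By genotype at RT, Crls1 was -0.0012 under quantile normalization. By genotype at 4°C, Cds2 was -0.038 by DESeq2, -0.037 by edgeR, -0.0054 with the muscle covariate and -0.12 with libraries of 10000000 reads or more, where Ptpmt1 was 0.012 and Tamm41 0.062. For the interaction, 75th percentile scaling gave 0.052 for Crls1, 0.012 for Ptpmt1 and 0.020 for Cds2, quantile normalization 0.023 for Crls1 and 0.0074 for Ptpmt1, and libraries of 10000000 reads or more 0.017 for Ptpmt1. With 1 mouse left out, the genotype difference at RT ran from -0.042 to 0.11 for Crls1, -0.030 to 0.032 for Ptpmt1, -0.017 to 0.15 for Tamm41 and -0.019 to 0.072 for Cds2. That at 4°C ran from -0.036 to 0.088 for Crls1, -0.15 to 0.073 for Cds2 and -0.28 to 0.043 for Lclat1. The interaction ran from -0.085 to 0.066 for Crls1, -0.084 to 2.9e-05 for Ptpmt1 and -0.19 to 0.032 for Cds2. The causes of these changes were not tested.

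Replicate numbers name different mice in each group, and same-numbered mice did not deviate together in all pairs (r of -0.36 to 0.43). Of 22 mice, 3 deviated most like the mouse of their own number, so the numbers were not taken as pairs. Between control and BAT-Mcu-KO animals at 4°C, r was 0.004 to 0.43 (mean 0.21), and 2 of 5 mice were most like their own number. In the other comparisons the mean r was -0.16 to -0.009. A link between same-numbered mice at 4°C was not tested. A fit with the number as a replicate block called 4 genes by cold in each genotype and 0 in the other comparisons, with 6610 and 6376 of all genes by cold in control and BAT-Mcu-KO animals and 7 by genotype at each temperature, and the interaction of Crls1 was 0.031.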
